A study of Mus musculus with 3 samples.

Results

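The genes described here encode intermediate filament proteins and lamins, the filament-forming proteins of the cytoplasm and of the nuclear lamina. They were taken by name: Des, Vim, Nes, Synm, Sync, Lmna, Lmnb1, Lmnb2, Krt8 and Krt18, 10 of the 35562 genes in the data, together with the 7 annotated transcripts of Lmna. The RNA came from myoblast lines 66, 67 and 72, which form a single condition with n = 3. All 3 carry the Dmdmdx mutation and the nuclear GFP reporter Pax7-nGFP. In all 3 lines dystrophin had been edited with CRISPR/Cas9 so that the mutated exon is skipped and the reading frame is restored. They were grown from sorted satellite cells, the resident muscle stem cells, of mouse-mouse chimeras, and the myoblasts were purified by FACS before RNA-seq, according to the study. These chimeras were made by injecting edited iPSCs (induced pluripotent stem cells reprogrammed from embryonic fibroblasts) into host blastocysts with the alleles Pax7 Cre/ERT2 and Rosa26 lsl-DTA, with which tamoxifen removes host cells that express Pax7. The labels do not say which line came from a tamoxifen-injected animal or which lines share a chimera, so the lines were not split, and the spread between them may be partly technical. Because no second condition was analysed here, every value is a description of edited myoblasts, without a test between conditions, and 3 lines allow no exact p-value below 0.25.

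Intermediate filament proteins share a coiled-coil rod with which they pair and assemble into rope-like filaments. Desmin is the characteristic filament of muscle, where it links sarcomeres to each other, to the nucleus and to the membrane. In the muscle lineage, vimentin and nestin are abundant in proliferating and immature cells, including myoblasts, but vimentin is not limited to such cells. Lamins line the inner face of the nuclear envelope: the B-type lamins are made by most dividing cells, and the A-type lamins become abundant in differentiated and mechanically loaded tissues, such as muscle, where mutations of the human gene cause muscular dystrophy and cardiomyopathy. Keratins assemble only as pairs of a type I and a type II protein and are typical of epithelial cells.

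The libraries held 66972426 to 73274315 estimated counts, so counting error matters only for the lowest genes. Levels are given as TPM, the estimated count per effective transcript length scaled to 1000000 over a library and summed over the transcripts of a gene, which allows genes to be compared with each other. All 6 of 6 myoblast markers were at 10 TPM or more in every line, from Myf5 at 109 ± 10.9 (SD, n = 3) to Myod1 at 690 ± 107 TPM. Their summed level was 2008 TPM in line 66, 1927 in line 67 and 1850 in line 72. Markers of differentiated muscle were also present, at 10 TPM or more in every line for 7 of 8 genes. They ran from Ckm at 6.90 ± 2.39 to Mylpf at 826 ± 177 TPM, and their summed level was 1687 TPM in line 66, 2352 in line 67 and 2828 in line 72. Of the 9 epithelial markers 7 were below 1 TPM in every line, as were 5 of 7 fibroblast markers and 5 of 6 neural progenitor markers, with Esrp1 (1 count in line 66 and 0 in the others) and, at 0 counts in every line, Lum and Dpt the lowest epithelial and fibroblast markers. The exceptions were Cldn4 (54.8, 10.1 and 5.99 TPM in lines 66, 67 and 72) and Krt19 among the epithelial genes, Col1a2 (7.47, 28.3 and 37.0 TPM) and Thy1 (4.19 ± 1.40 TPM) among the fibroblast genes, and Fabp7 (1.37 ± 0.398 TPM) among the neural genes.

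The feature that the family shares is visible in the coding sequence near the end of the rod, a stretch that is among the most conserved of all intermediate filaments. It was located by searching each coding sequence for a tyrosine codon, 2 codons of any kind, a pair of leucine codons and a glutamate codon, with 1 codon before and 2 after. The pattern was found once in 9 of the 10 members and not in Sync, and in 1.21% of 21432 genes with a complete coding sequence. The stretches of 8 members are shown 5′ to 3′ from the GENCODE M21 transcripts, with bases that equal those of Des in capitals:
Des: ACCTACCGGAAGCTACTGGAGGGCGAG
Vim: ACCTACaGGAAGCTgCTGGAaGGCGAG
Nes: ACaTACaGGActCTgCTGGAGGctGAG
Synm: ACCTACaGGgcctTgtTGGAaGGaGAa
Lmna: gCCTAtCGaAAGCTgCTGGAGGGCGAG
Lmnb2: gCCTACCGcAAGCTgCTGGAGGGCGAG
Krt8: ACCTACCGcAAGCTgCTGGAGGGgGAG
Krt18: ACCTACCGccgctTgCTGGAGGatGga
Of the 27 bases, Vim, Krt8 and Lmnb2 shared 24 with Des, Lmna 23, Lmnb1 22, Nes 20, and Synm and Krt18 17. Part of this likeness is set by the codons that the search required.

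The members covered a wide range of levels. Vimentin, at 7993 ± 755 TPM (SD, n = 3), stood above 99.98% of the 25510 detected genes, and Krt8, at 0.0945 ± 0.0394 TPM, above 30.2%. By mean level the order was Vim, Lmna, Des, Nes, Lmnb1, Sync, Lmnb2, Krt18, Synm and Krt8. Every pair of neighbours in that order kept it in all 3 lines without overlap of their ranges, except Lmnb1 and Sync, whose ranges overlapped and whose order held in 2 of 3 lines. This order is per length: by estimated counts Lmnb2 (8333 to 9357) was above Sync (5307 to 5836) and Nes above Des in every line, and Nes (104353) was above Lmna (95026) in line 66. The muscle and progenitor filaments and the A-type lamin thus lay at the top, the B-type lamins and syncoilin in the middle, and synemin and the keratins at the bottom.

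**Figure D1:**
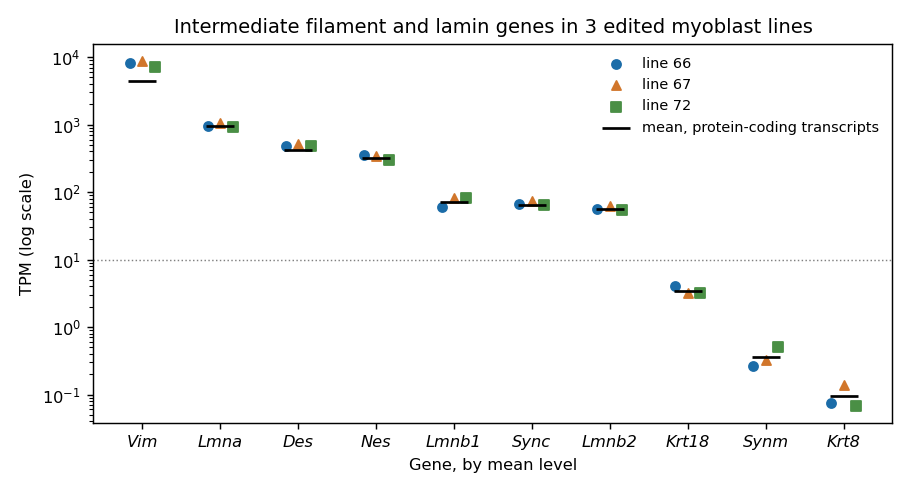
TPM on a log axis for the 10 genes, ordered by mean level, with a symbol for each of lines 66, 67 and 72, a black bar for the mean over protein-coding transcripts alone, and a dotted line at 10 TPM. The symbols of a gene lie close together compared with the distance between Vim (7993 TPM) and Krt8 (0.0945 TPM), and the black bar falls below the symbols most clearly for Vim.

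Among the cytoplasmic type III filaments, vimentin was far more abundant than desmin. Vim (chr2:13573927-13582826 on the plus strand of GRCm38) was at 8091 TPM in line 66, 8693 in line 67 and 7194 in line 72. Des (chr1:75360329-75368579, plus strand) was at 484, 511 and 487 TPM in the same lines, a mean of 494 ± 15.0. Both were highest in line 67, and desmin had the smallest spread of all members, 1.06-fold from the lowest to the highest line. Vimentin made up 89.9% ± 0.503 of the summed TPM of the 7 cytoplasmic members (keratins included), and desmin 5.58% ± 0.407. Over protein-coding transcripts alone these shares were 84.6% and 7.99%, and by estimated counts 72.2% and 10.8%.

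The ratio of Vim to Des was 16.7, 17.0 and 14.8 in lines 66, 67 and 72 (16.2 ± 1.21), and it depended on which transcripts were counted. Over protein-coding transcripts alone it was 10.6, and by estimated counts without correction for length 6.74. Vimentin exceeded desmin in every line by each of these measures, so the direction was the same throughout and the size was not.

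The transcripts of both genes took different shares by TPM and by counts. Vim-203, annotated as a retained intron of 535 bases, took 43.6% ± 0.940 of Vim TPM but 11.8% ± 0.594 of Vim estimated counts, at an effective length of 313 to 320 bases. The protein-coding Vim-201, which encodes the full protein of 466 codons, took 31.2% ± 1.55 of TPM and 56.0% ± 1.78 of counts. Vim-206, protein-coding with 427 codons, took 24.8% ± 0.637 of TPM and 31.6% ± 1.2 of counts. The division between them rests on little sequence: 28 of the 1747 words of 31 bases in Vim-206 and 50 of the 505 in Vim-203 occur in no other listed transcript. For desmin the same pattern was milder, with Des-202, a retained intron of 835 bases, at 14.1% ± 1.31 of TPM and 3.46% ± 0.368 of counts, and Des-201, of 469 codons, at 85.2% ± 1.25 and 96.4% ± 0.353.

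**Figure D2:**
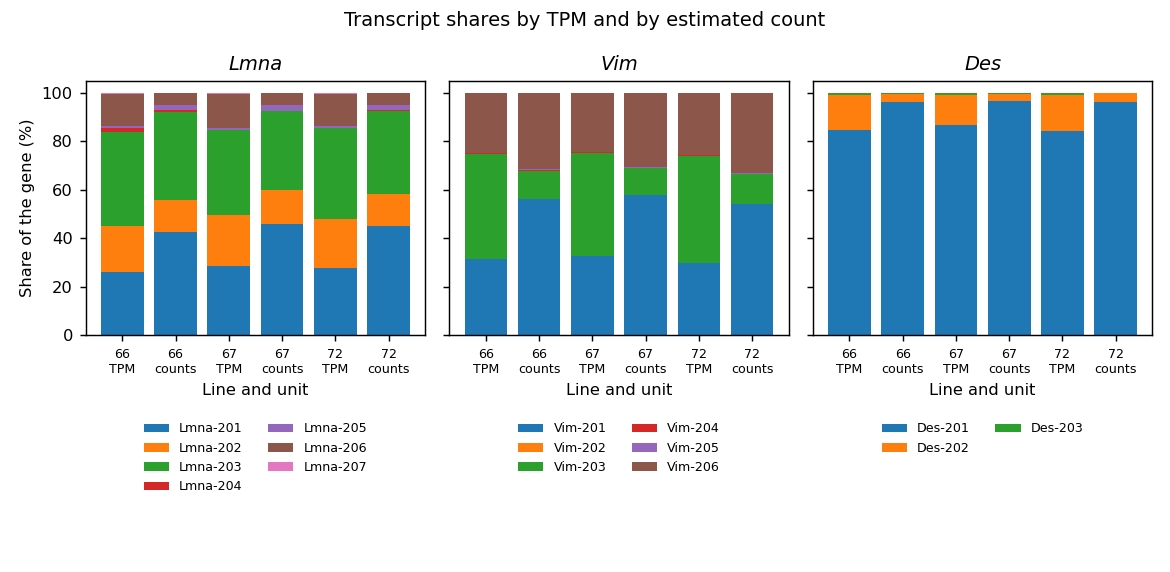
Share of each annotated transcript in its gene (%), for Lmna, Vim and Des, with a stacked bar for TPM and a stacked bar for estimated counts in each of lines 66, 67 and 72. Vim-203 and Lmna-201 have different shares by the 2 units in each line: Vim-203 has 43.6% of Vim by TPM and 11.8% by counts, and Lmna-201 27.4% of Lmna by TPM and 44.5% by counts.

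Nestin, the large type IV filament protein of progenitor cells that co-assembles with vimentin and desmin, was also abundant, whereas synemin, another type IV partner of desmin, was nearly absent. Nes (chr3:87971078-87980451, plus strand) was at 355, 339 and 301 TPM in lines 66, 67 and 72 (332 ± 27.9), and its values were highest in line 66 and lowest in line 72. Nes-201, of 1864 codons, carried 97.4% of Nes TPM. Per length desmin exceeded nestin in every line, by 1.5-fold ± 0.129, whereas by counts the ratio was 0.675 ± 0.0580, where the longer nestin transcript weighs more. The neural progenitor markers measured beside it were near the bottom of the range, with Olig2 at 0 counts in every line, which leaves room for up to 3.

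Synm (chr7:67730160-67759742, minus strand) was at 0.260, 0.322 and 0.512 TPM, from 81 estimated counts in line 66 (95% exact Poisson interval 64.3 to 101), 85 in line 67 (67.9 to 105) and 112 in line 72 (92.2 to 135). These intervals cover counting error only. The gene was detected in every line and highest in line 72, but the intervals of all 3 lines overlap. Of the 31-base words of Synm-201, 93.5% occur in no other gene, and the rest occur in Gm45102, in Pitpnm1 (9638 to 12177 counts) or in Ttc23 (836 to 1101 counts), which overlaps Synm on the opposite strand. The Synm counts were whole within 0.01, and the part of shared words in them was not tested. The ratio of Des to Synm in the 3 lines averaged 1466 ± 466 per length and 694 ± 130 by counts. Its transcripts differed between lines more than those of any abundant member: Synm-201, of 1259 codons, took 58.2%, 44.8% and 18.9% of Synm TPM in lines 66, 67 and 72, and Synm-203, of 817 codons, took 13.2%, 27.3% and 54.6%. Those shares rest on at most 48.3 estimated counts per transcript and library. They also rest on little sequence: of the 31-base words, 0 of 6923 in Synm-201 and 65 of 3358 in Synm-203 occur in no other listed transcript. How far the shifts reflect the splitting of reads was not tested.

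Sync encodes syncoilin, an intermediate filament protein of muscle that binds desmin and alpha-dystrobrevin of the dystrophin complex. It was at 66.3, 72.7 and 64.6 TPM in lines 66, 67 and 72 (67.9 ± 4.26), with desmin 7.29-fold ± 0.25 above it per length and 11.1-fold ± 0.341 by counts. Sync (chr4:129287617-129308559, plus strand) overlaps Rbbp4 on the opposite strand, and 75.6% of the 31-base words of Sync-201 occur in no other gene. Rbbp4, a histone-binding protein, had 34222 to 34338 estimated counts against 5307 to 5836 for Sync, and the libraries are stranded, but the strand setting of the quantification is not given in the sources used here. How much of the Sync level comes from shared words was not tested.

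The A-type lamin gene dominated the lamins. Lmna (chr3:88480147-88509956, minus strand) was at 938, 1063 and 925 TPM in lines 66, 67 and 72 (976 ± 76.0). Lmnb1 was at 60.5, 80.3 and 80.6 TPM (73.8 ± 11.5), and Lmnb2 (chr10:80901203-80918245, minus strand) at 56.1, 61.3 and 53.3 TPM (56.9 ± 4.06). No value of a B-type lamin came near the lowest Lmna value. Lmna thus held 89.0%, 88.2% and 87.4% of the summed TPM of the 3 lamin genes (88.2% ± 0.797), and 84.7% by estimated counts.

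The B-type lamins each came mainly from a single transcript and varied differently between lines. Lmnb2-204, of 596 codons, carried 92.9% ± 1.80 of Lmnb2 TPM, and the main Lmnb1 transcript, of 588 codons, 96.1% ± 1.82 of Lmnb1 TPM. Line 66 was the low line for Lmnb1, while Lmnb2 was lowest in line 72. The ratio of Lmnb1 to Lmnb2 was therefore 1.08, 1.31 and 1.51 in lines 66, 67 and 72 by TPM, above 1 in every line, but 0.770, 0.940 and 1.04 by counts, where the longer Lmnb2 transcript weighs more. The order of the B-type lamins thus differed between the units in lines 66 and 67 and was the same in line 72. On chromosome 10, where Lmnb2 lies, the median log2 ratio of line 66 to the mean over both others for 427 genes was 0.28, against 0.03 for Lmnb2 itself, in line 67 it was -0.09, against 0.18, and in line 72 it was -0.18, against -0.19. The part of that shift in the Lmnb2 values was not tested.

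The single Lmna gene makes lamin A and lamin C by splicing at its 3′ end. Lamin A is made as a precursor, prelamin A, whose carboxyl end is farnesylated and then cut off by the protease ZMPSTE24. Lamin C lacks this end and is not farnesylated. In the annotation both products share 1704 coding bases (568 codons) over exons 1 to 10. Lmna-203 (ENSMUST00000120377), the lamin C transcript, then reads through the end of exon 10 (chr3:88483205-88483413) into 6 codons of its own and a stop codon. Lmna-201 (ENSMUST00000029699), the lamin A transcript, splices to exon 11 (chr3:88482346-88482612) and exon 12 (chr3:88481148-88482100) for 97 further codons. The point of divergence is shown 5′ to 3′ on the transcribed strand, with the last shared bases in lower case and the bases of each product in capitals:
lamin C tail: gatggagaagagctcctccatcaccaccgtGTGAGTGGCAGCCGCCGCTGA
lamin A at the same point: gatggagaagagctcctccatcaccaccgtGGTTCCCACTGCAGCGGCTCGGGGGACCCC
The end of the lamin A coding sequence carries the codons for the farnesylation signal, a cysteine codon 4th from the end, as does that of lamin B2 in Lmnb2-204. The last 4 codons are in capitals and the stop codon follows in lower case:
lamin A end: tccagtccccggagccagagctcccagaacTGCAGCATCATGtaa
lamin B2 end: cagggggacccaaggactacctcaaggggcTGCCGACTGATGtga
A cysteine codon stands at the same place in the main Lmnb1 transcript, and not in lamin C. Lmna-202 (ENSMUST00000036252) encodes lamin C2, known as the short lamin of male germ cells in meiosis, with a first exon of its own (chr3:88493237-88493312) in place of the head and the start of the rod. The 18 coding bases that it does not share with lamin C are in capitals:
lamin C2 start: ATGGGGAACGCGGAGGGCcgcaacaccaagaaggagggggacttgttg

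**Figure D3:**
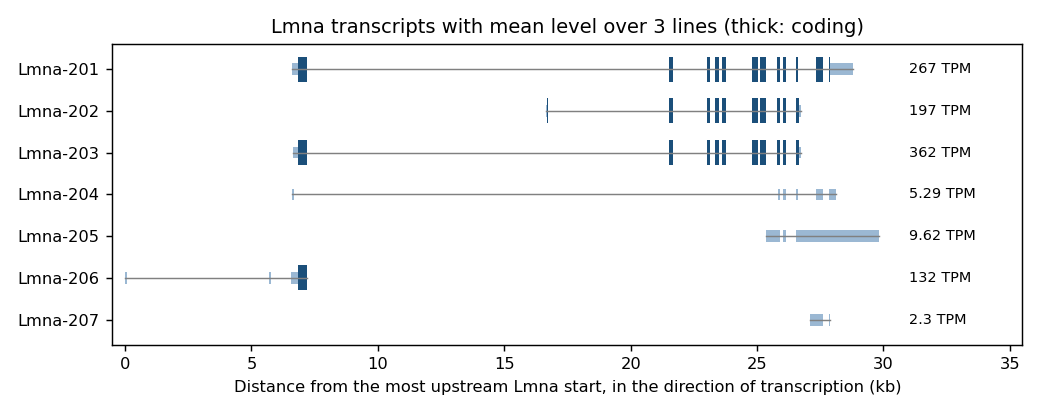
Exons of the 7 Lmna transcripts against distance in kb from the most upstream start, in the direction of transcription, with thick boxes for coding bases, thin pale boxes for the rest of the exons, grey lines for introns and the mean TPM over 3 lines at the right. Lmna-201 and Lmna-203 differ at the 3′ end, Lmna-202 starts at an exon inside the first intron of both, and Lmna-206 holds most of the first coding exon and 2 exons upstream of it.

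In the myoblasts, lamin C took the largest share of Lmna by TPM and lamin A the largest by counts. Lmna-201 was at 244, 302 and 256 TPM in lines 66, 67 and 72, or 26%, 28.4% and 27.6% of Lmna TPM (27.4% ± 1.23). Lmna-203 was at 365, 374 and 347 TPM, or 38.8%, 35.2% and 37.4% (37.2% ± 1.84). Lamin C thus exceeded lamin A per length in every line without overlap. By estimated counts the order turned in every line, with lamin A at 44.5% ± 1.70 and lamin C at 34.6% ± 2.06 of Lmna counts, and the lamin A transcript is the longer (3156 against 2021 bases). Out of these 2 transcripts alone, lamin A was 42.4% of TPM.

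The germ-cell form was assigned a level as well. Lmna-202 was at 179, 224 and 188 TPM (20.2% ± 0.967 of Lmna), and Lmna-206, a fragment of 117 codons without an annotated stop codon, at 125, 150 and 122 TPM (13.5% ± 0.498). The other 3 transcripts, 2 with a retained intron and Lmna-204 without a coding sequence, each stayed below 1% of Lmna TPM on average, and Lmna-204 was at 0 in line 67 and 14.5 TPM in line 66. How far these values can tell the products apart is limited by shared sequence. Neither Lmna-201 nor Lmna-203 has a 31-base word that occurs in no other listed transcript, but 1247 of the 3126 words of Lmna-201 are absent from both Lmna-203 and Lmna-202, and 112 of the 1991 words of Lmna-203 are absent from Lmna-201. Lmna-202 has 74 such words of 1506, and the remaining words also occur in Lmna-203. How far the lamin C2 level draws on reads of lamin C was not tested.

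The enzymes that process prelamin A and the B-type lamins were all expressed. All 5 of 5 were at 10 TPM or more in every line, from Fntb, the beta subunit of farnesyltransferase, at 12.1 ± 0.0929 TPM to its alpha subunit Fnta at 68.8 ± 3.38. Zmpste24, the protease that removes the prelamin A end, was at 45.7, 40.2 and 35.8 TPM in lines 66, 67 and 72. Of 14 envelope partners of lamins, 11 were at 10 TPM or more in every line. The highest was Tmpo, which encodes the lamina-associated LAP2 proteins, at 299 ± 6.82 TPM, and the lowest Mlip, the muscular lamin-interacting protein, at 1.15 ± 0.158. Emd, the gene of emerin, the protein lost in X-linked Emery-Dreifuss muscular dystrophy, was at 108 ± 7.06 TPM.

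Desmin and vimentin are tied to other structures by linkers and chaperones, and 8 of 9 such genes were found, while Eppk1 was not analysed here. Of these 8, 5 were at 10 TPM or more in every line and 3 below 1 TPM. The highest was Cryab, the small heat shock protein that binds desmin, at 302 ± 47.2 TPM. Plec, the gene of plectin, which anchors filaments to membranes and nuclei, was at 100.1 ± 9.86 TPM, and Dtna, the dystrobrevin partner of syncoilin, at 21.8, 28.2 and 34.0 TPM in lines 66, 67 and 72. The lowest was Ppl, the gene of the epithelial linker periplakin, at 0.0780 ± 0.0219 TPM. Among 10 other intermediate filament genes, 2 were at 10 TPM or more in every line, Iffo1 (81.9 ± 15.0 TPM) and Iffo2 (21.6 ± 4.06), and 6 were below 1 TPM in every line, the lowest being Gfap, the astrocyte filament, with 0 to 3 counts. Between them lay the neurofilament genes Nefm, at 10.5, 13.3 and 5.73 TPM in lines 66, 67 and 72, and Nefl, at 5.82, 3.66 and 2.72 TPM. Both were more than 2-fold apart between lines, as were 7.16% of the 12528 genes averaging 1 TPM or more. Nefm and Nefl were named after their values were seen, and some of the 6 genes below 1 TPM were also more than 2-fold apart.

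The keratins Krt8 and Krt18, which pair with each other in simple epithelia, were not matched in level. Krt18 (chr15:102028180-102032027, plus strand), the type I partner, was at 4.05, 3.17 and 3.19 TPM from 244, 176 and 179 counts in lines 66, 67 and 72, with 95% exact Poisson intervals of 214 to 277, 151 to 204 and 154 to 207. Krt8 (chr15:101996698-102004482, minus strand), the type II partner, was at 0.0751, 0.140 and 0.0686 TPM from 7, 12 and 6 counts, with intervals of 2.81 to 14.4, 6.20 to 21 and 2.2 to 13.1. In no line was either at or under 3 counts, the limit set by a count of 0, though Krt8 came near it. The ratio of Krt8 to Krt18 was 0.0185, 0.0440 and 0.0215 (0.0280 ± 0.0140), and 0.0435 by counts, and the smallest ratio of Krt18 to Krt8 in a line was 14.7, by counts in line 67, with the counting error given above. All 31-base words of Krt18 and 95.3% of those of Krt8 occur in no other gene, and the counts of both were whole numbers within 0.01.

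The excess of type I keratin was not particular to this pair. Of 53 keratin genes, 38 had 3 counts or fewer in every line. By the mean, Krt19 (19.1, 8.10 and 12.9 TPM in lines 66, 67 and 72) led, followed by Krt10, Krt13, Krt18 and Krt80, the only keratins that averaged 1 TPM or more, and Krt8 was in 8th place. Below Krt19 the order differed between lines: Krt13 (10.9 TPM) was above Krt10 (7.13) in line 66, and Krt18 (3.19) above Krt13 (3.07) in line 72. Krt8 was above Krt9, 7th by the mean, in lines 66 and 72. Type I keratins summed to 41.6, 25.1 and 27.9 TPM over 27 genes and type II to 3.30, 2.45 and 1.96 TPM over 25 genes, a ratio of 12.6, 10.2 and 14.2 per length and of 3.6, 2.73 and 3.68 by counts. That division was made after the values of the keratins were seen. Line 66 had the highest Krt18, Krt19, Krt13 and Krt80, and also the highest Cldn4, but 7 of the 9 epithelial markers, Epcam and Cdh1 among them, stayed below 1 TPM in every line. The epithelial markers summed to 75.5, 19.1 and 20.0 TPM, of which Cldn4 and Krt19 gave the greater part in each line. Of the 9, 6 were highest in line 66 (Krt7 with 0.815, 0.243 and 0.543 TPM among them), 2 in line 67 (Cdh1 and Grhl2) and 1 in line 72 (Epcam). Some of the 6 rest on few counts, as Esrp1 does with 1 in line 66 and 0 in the others, and Krt7 and Krt19 are keratins themselves. The share of all genes highest in line 66 was not measured. The part of the epithelial markers in the Krt18 level of line 66 was not tested. Of the 8 stratified epithelial keratins, 7 were at or under 3 counts in every line, with Krt1 at 0 in all and Krt10, the exception, at 7.53 ± 0.693 TPM. Krt20 and Krt23 of the simple epithelial keratins were also at 0 counts in every line.

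**Figure D4:**
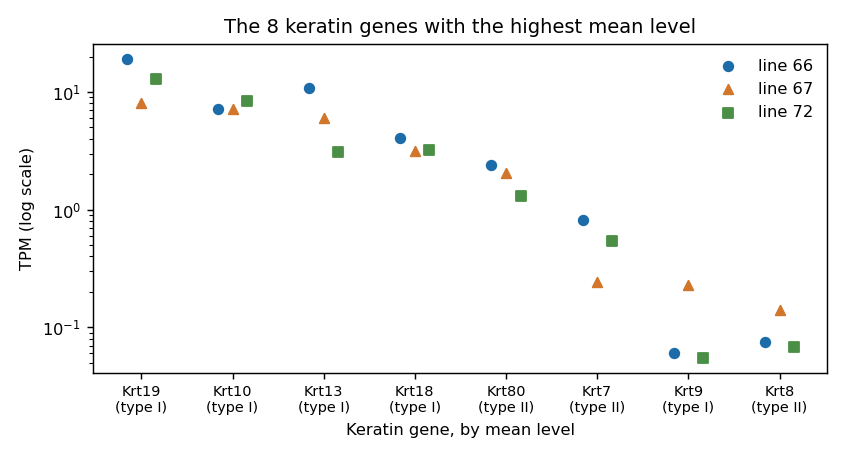
TPM on a log axis for the 8 keratin genes with the highest mean level, with a symbol for each of lines 66, 67 and 72 and the type under each name. Krt19 leads at 8.10 to 19.1 TPM, Krt18 lies in the middle at 3.17 to 4.05, and its partner Krt8 is last by the mean at 0.0686 to 0.140. Krt9 was below Krt8 in lines 66 and 72.

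The lines differed little in these genes. Of the 10 members, 7 averaged 10 TPM or more, and none of these was more than 2-fold apart between the highest and the lowest line, against 2.47% of the 8428 genes at that level. None was more than 1.5-fold apart either, against 9.79% of those genes. With 7 genes, counts of 0 lie near those backgrounds and are no result about the family. The median ratio of highest to lowest line was 1.15 for the 7 members and 1.18 for all 8428 genes. Lmnb1 had the widest spread of the 7 at 1.33-fold, wider than 79.1% of the genes, and Des the narrowest at 1.06-fold, wider than 8.86%. Of the 3 members below 10 TPM, Krt18 was 1.28-fold, Synm 1.97-fold (81 to 112 counts) and Krt8 2.04-fold apart, the last from 6 to 12 counts. Without the filter on level, Krt8 was thus the 1 member of 10 over 2-fold apart, against 26.0% of the 21128 genes above 0 TPM in every line.

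**Figure D5:**
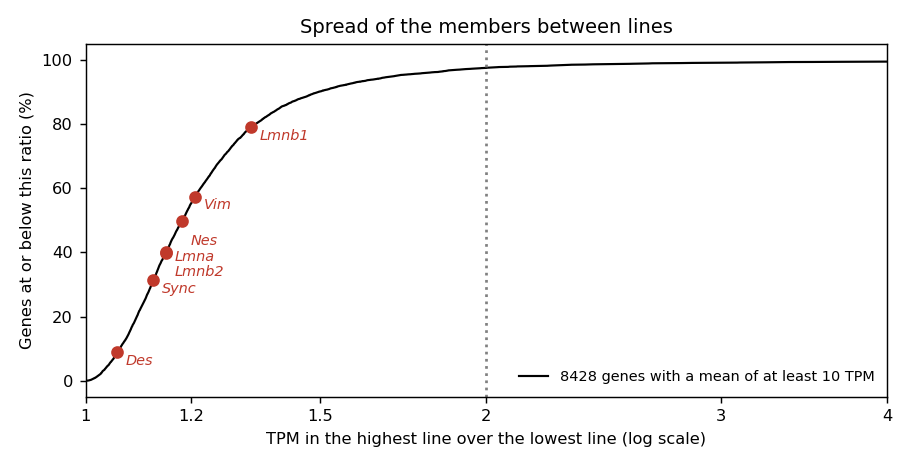
Cumulative share (%) of the 8428 genes that averaged 10 TPM or more against the ratio of the highest to the lowest line on a log axis, with the 7 members of that level as red points on the curve and a dotted line at 2-fold. The members run from Des at 1.06-fold to Lmnb1 at 1.33-fold, all left of the dotted line.

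Which line was high differed from member to member. Line 67 was the highest for Des, Vim, Sync, Lmna, Lmnb2 and Krt8, line 66 for Nes and Krt18, and line 72 for Synm and Lmnb1. For Lmnb1 the margin of line 72 over line 67 was small, 80.6 against 80.3 TPM. Line 67 was above line 72 for Lmnb1 by estimated counts (8799 against 8690) and over protein-coding transcripts (78.7 against 76.0 TPM). Line 72 was the lowest for Vim, Nes, Sync, Lmna, Lmnb2 and Krt8, the last on 6 counts against 7 in line 66. The share of all genes lowest in line 72 was not measured. Line 72 also had the highest summed differentiated muscle markers, among them Actn2, the sarcomeric alpha-actinin (30.5, 52.0 and 65.5 TPM in lines 66, 67 and 72). Desmin, itself a muscle filament, was 487 TPM there and 484 TPM in line 66, where those markers were lowest. The myoblasts had been sorted, and the part of differentiation in the values of the members was not tested, and in bulk RNA fewer cells of a kind cannot be told apart from less RNA per cell.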

How the data were processed

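Libraries of poly-A RNA from 3 edited myoblast lines were used, with the line as the replicate. The authors deposited, for each of 121798 transcripts, an estimated count, in which reads that fit several transcripts are split, without normalization. The authors also deposited TPM values, the estimated count per effective length scaled to 1000000 per library. The deposited lengths and effective lengths (other values) were used to describe transcripts. The submitters' processing notes name bcl2fastq 2.20, fastp 0.20, kallisto 0.46.1 and the build GRCm39. The annotation release and strand and bias settings are not given in the sources used here. Effective lengths exceeded the length for 18.2% of transcripts and differed between lines.

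Transcripts were matched by identifier to GENCODE M21 (GRCm38), which held 120686 of them. It gave symbols, coordinates and coding sequences, and no coordinates were converted. The 1112 others, with 0.493% to 0.535% of counts, were left out. TPM and estimated counts were summed per gene. Lines were compared by the ratio of highest to lowest TPM over genes averaging 10 TPM or more. This rule was tested on simulated data. Coding-only levels used transcripts annotated as protein-coding. Shared sequence was measured with 31-base words on either strand. No test was run, because there is 1 condition, and intervals cover counting error only.

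All 10 members were named, and of each list the highest and lowest gene, those over 2-fold apart between lines among those averaging 10 TPM or more, and at most 4 more. The members and lists were chosen with earlier results of these data known. Alternatives were estimated counts, CPM, a pseudocount of 0.1 in place of 1 in log2(TPM + pseudocount), protein-coding transcripts, other filters and thresholds, leaving out each line, and the TMM factors of edgeR 4.0.16 and size factors of DESeq2 1.42.0, for which counts were rounded to whole numbers. Other tools were R 4.3.3, Biopython 1.88, pandas 2.3.3, matplotlib 3.10.9, scipy 1.17.1, numpy 2.4.6 and Python 3.11.15.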

Additional observations from a re-analysis of the deposited data

How the results depend on the processing

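By estimated counts, which are not corrected for length, the share of the A-type lamin was 84.7% in place of 88.2%, the share of the lamin A transcript 44.5% in place of 27.4%, the ratio of Vim to Des 6.74 in place of 16.2 and the ratio of Krt8 to Krt18 0.0435 in place of 0.0280. Over protein-coding transcripts alone the ratio of Vim to Des was 10.6, and out of lamin A and lamin C transcripts alone the share of lamin A was 42.4%. These values moved by more than 1 SD between lines. Leaving out each line in turn moved each of the 4 values by less than 1 SD, with ranges of 87.8% to 88.6%, 26.8% to 28%, 15.7 to 16.9 and 0.0200 to 0.0328. The count of members over 2-fold apart was 0 with TMM or DESeq2 scaling, a filter at 1 TPM, 1 added to each TPM, a threshold of 1.5-fold and without each line. It was 1, Krt8, with neither filter nor pseudocount, an alternative chosen after seeing the data. Of 60 values of single genes under alternatives, 46 moved by less than 1 SD and 14 by more. Of the 14, 9 were with CPM in place of TPM, 3 with a pseudocount of 0.1, for the lowest genes Synm, Krt8 and Krt18, and 2 over protein-coding transcripts, for Vim and Des. No paired analysis was possible because all 3 lines belong to 1 group. Depth limits Krt8, at 6 to 12 counts, and the transcripts of Synm.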
